A study of Mus musculus with 8 samples.

Results

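Of 15953 autosomal regions read by 2 or more microarray probes, 414 (2.6%) gave no methylation signal in mouse liver before birth or at weaning. A region is a run of probes that lie up to 500 bp apart. A region was kept when none of its probes was flagged by the scanner software as well above background in either dye channel on either replicate array, so these 414 regions were selected on their readings, and the counts and levels that follow describe that selection and are given without tests. Genomic DNA came from livers of C57BL6/J mice, with no mutation, treatment or transgene named in the labels, taken at 17.5 days of gestation (E17.5) or 21 days after birth (P21). MCAM, short for methylated CpG island amplification followed by microarray hybridisation, enriched the methylated DNA of 2 biological replicates of each age, and each replicate was hybridised to 2 array designs that divide the chromosomes between them. On all 4 arrays the E17.5 DNA was labelled with Cy3 and the P21 DNA with Cy5, and without a dye swap the effects of age and dye cannot be told apart. The labels used here name neither the sex nor the number of animals behind a sample, and the spread between replicates covers these samples alone. Because the assay reads DNA, the labelled tissue was not checked against expressed marker genes.

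MCAM cuts DNA with a pair of enzymes that read the same six-letter site, CCCGGG, but differ in whether they tolerate a methylated CpG within it, and then ligates adaptors to the methylated ends and amplifies the fragments between them. A probe lights up when its fragment is flanked by methylated sites at a distance that amplifies well. A dark probe can thus stand for unmethylated DNA or for DNA with no suitable fragment, and these cannot be told apart from the readings. Most CpG-rich promoters of active genes are unmethylated in mammalian tissues, whereas CpG-poor DNA is methylated over most of its few CpGs. Olfactory and vomeronasal receptor genes, which encode odour and pheromone receptors of sensory neurons, lie in large clusters of CpG-poor DNA and are for the most part silent in liver. The regions without signal held both kinds of gene.

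The following windows around gene starts are shown to set the sequence of these kinds of gene side by side. They were taken from the RefSeq promoter table (GRCm38.p6), which gives 250 bases before and 50 after a start. The files name the gene of each probe but not the genome build of its coordinates or its position within the gene, so a window need not hold the probes. Capitals mark CpG. Olfr913 (chr9:38592553-38592852, plus strand) encodes an odorant receptor and Vmn1r69 (chr7:10581438-10581737, minus strand) a pheromone receptor. Cp (chr3:19956804-19957103, plus strand; the first of 2 windows listed) encodes ceruloplasmin, the copper-carrying ferroxidase that liver secretes. Papola (chr12:105784447-105784746, plus strand) encodes the poly(A) polymerase of messenger RNA, and Morc2a (chr11:3649187-3649486, plus strand; the first of 2 windows listed) a chromatin ATPase of gene silencing. Each of these 5 genes had 1 region on the arrays, without signal.
Olfr913: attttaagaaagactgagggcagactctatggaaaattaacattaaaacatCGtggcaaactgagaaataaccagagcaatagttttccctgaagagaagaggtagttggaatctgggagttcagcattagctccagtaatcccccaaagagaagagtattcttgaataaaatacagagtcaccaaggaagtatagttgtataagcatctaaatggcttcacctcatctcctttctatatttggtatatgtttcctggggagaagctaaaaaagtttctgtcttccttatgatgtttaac
Vmn1r69: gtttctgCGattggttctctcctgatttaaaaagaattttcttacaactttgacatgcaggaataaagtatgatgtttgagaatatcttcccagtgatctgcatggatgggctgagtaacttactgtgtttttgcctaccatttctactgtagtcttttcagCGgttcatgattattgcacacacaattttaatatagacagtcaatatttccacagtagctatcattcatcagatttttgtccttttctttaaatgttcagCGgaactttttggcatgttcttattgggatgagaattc
Cp: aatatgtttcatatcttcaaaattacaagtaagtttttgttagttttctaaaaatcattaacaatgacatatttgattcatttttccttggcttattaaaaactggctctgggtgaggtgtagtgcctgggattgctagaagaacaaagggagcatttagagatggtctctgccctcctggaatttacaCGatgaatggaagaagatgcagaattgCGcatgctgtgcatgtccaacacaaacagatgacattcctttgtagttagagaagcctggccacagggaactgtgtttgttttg
Papola: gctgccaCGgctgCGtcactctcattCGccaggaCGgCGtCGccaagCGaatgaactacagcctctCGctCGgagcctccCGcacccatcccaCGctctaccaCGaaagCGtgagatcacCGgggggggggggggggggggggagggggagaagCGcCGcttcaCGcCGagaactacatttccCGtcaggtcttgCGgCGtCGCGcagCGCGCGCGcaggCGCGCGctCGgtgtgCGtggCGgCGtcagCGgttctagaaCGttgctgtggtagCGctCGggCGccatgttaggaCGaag
Morc2a: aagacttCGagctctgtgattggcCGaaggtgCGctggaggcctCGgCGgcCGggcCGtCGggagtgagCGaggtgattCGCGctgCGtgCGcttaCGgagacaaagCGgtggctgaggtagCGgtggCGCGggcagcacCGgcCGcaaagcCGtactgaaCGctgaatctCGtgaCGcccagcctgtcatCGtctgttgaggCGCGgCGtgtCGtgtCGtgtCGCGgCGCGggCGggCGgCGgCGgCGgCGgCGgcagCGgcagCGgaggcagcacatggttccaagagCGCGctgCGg
The Olfr913 window held 1 CpG and the Vmn1r69 window 3, with GC contents of 37.0% and 35.3%. The Cp window, of a liver-secreted protein, held 2 CpGs at 38.3% GC. The Papola window held 40 CpGs at 68.3% GC and the Morc2a window 46 at 70.3%. CCCGGG, searched as those letters (the site reads the same on both strands), occurred in none of the windows printed here. It occurs in 13.5% of the 32851 windows in the table. Windows were found for 303 of the 374 protein-coding genes with a region without signal (81.0%). In 32 of these genes (10.6%) at least 1 window held the site, and none of the 32 was a receptor gene. The 10.6% is a share of genes and the 13.5% a share of windows, so the 2 are not compared. Among the 32 genes were Hnrnpk, with 1 match in its window, and Rpl37, with 2.

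Over receptor genes as a set, 149 of the 180 protein-coding genes with a region without signal had a window (82.8%), as did 546 of the 627 receptor genes with none (87.1%). Both were CpG-poor: the median window held 1 CpG in each, with a median GC content of 33.7% in the former and 36.7% in the latter. The median ratio of observed to expected CpG was 0.0861 and 0.114. CCCGGG was found in 0 of the 149 windows and in 4 of the 546 (0.733%). The 21 windows of receptor genes that had a region with every probe well above background in all 4 channels had a median GC content of 44.0% and 2 CpGs. For the other genes the same check is void, because the table held a window for 79.4% of the 194 protein-coding genes with a region without signal, too few for a statement about the set.

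Net signal, the brightness of a spot after the scanner software's background subtraction, had a median a little below 0 over these regions in every sample. Over the 201 regions on the first array design, the region mean ranged from -12.9 to 8.40 with a median of -3.40 in E17.5 replicate 1, and from -9.70 to 3.77 with a median of -2.75 in E17.5 replicate 2. In P21 these regions ranged from -11.2 to 16.7 with a median of -1.18 in replicate 1 and from -11.2 to 9.09 with a median of -2.46 in replicate 2. The negative control probes of the arrays had a median net signal between -0.529 and 0.213 over the 8 samples. The 213 regions on the second design had medians of -2.96 and -2.14 in E17.5 and of -1.64 and -1.08 in P21. In all 4 E17.5 samples the median of the dark regions lay below the lower quartile of the negative control probes (between -2.64 and -1.61), and in all 4 P21 samples it lay between their quartiles. Regions in which every probe was bright in all 4 channels had medians between 89.1 and 773. The lowest net signal that the software called well above background differed between samples, from 5.70 in E17.5 replicate 2 on the second design to 24.7 in P21 replicate 1 on the first. Between 6.06% and 11.6% of the 908 negative control probes per array were themselves called well above background.

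**Figure D1:**
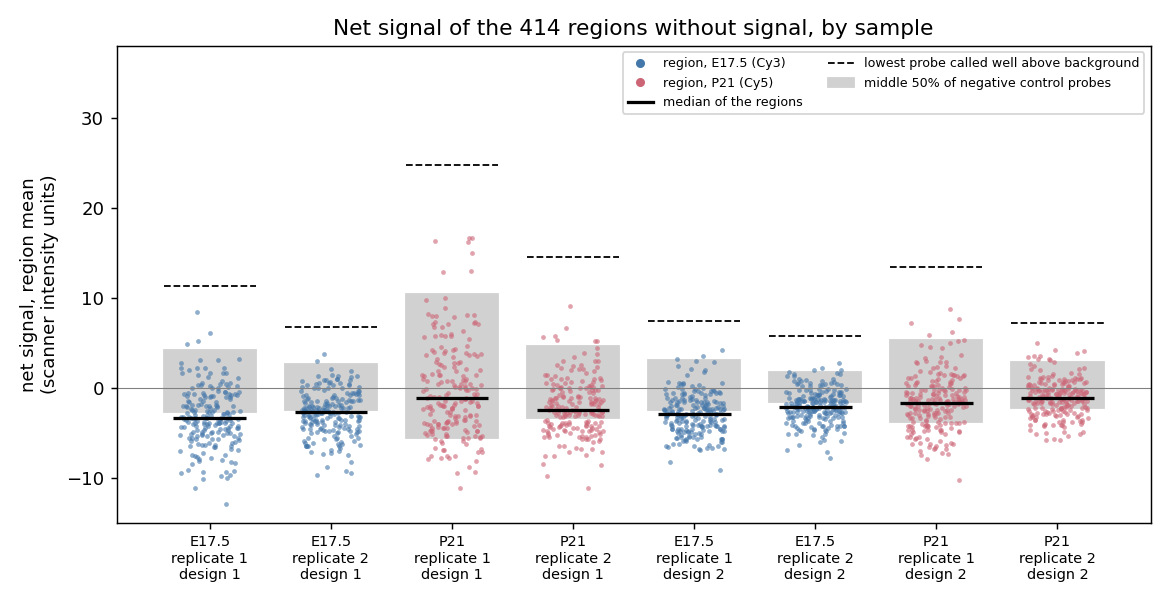
Net signal (mean over the probes of a region, in scanner intensity units) of the 201 regions on the first array design and the 213 on the second, in each of the 8 samples; points are regions, thick lines their medians, dashed lines the lowest probe called well above background, and grey boxes the interquartile range of the negative control probes. The medians lie between -3.40 and -1.08, below the dashed line in every sample.

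The well-above-background flag divides probes by their net signal in each channel, so a limit between kept and excluded regions follows from the rule. In P21 replicate 1 on the first design, the highest probe inside lay in Vmn1r23, a vomeronasal receptor gene, at a net signal of 24.42, and the lowest single reading that kept a region out was 25.03. Just outside stood 132 regions in which 1 reading alone, of 4 per probe, was well above background, and 46 of these were receptor regions. A further view is by probe: 1083 regions had exactly 1 probe above background in some channel, and in 742 of them that probe was above it in all 4 channels.

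Fewer probes made a region more likely to be kept, as the rule requires every probe to be dark. Regions without signal had a median of 3 probes (from 2 to 8) and a median length of 591 bp, against 5 probes (up to 31) and 1031 bp over all regions. The share without signal was 8.72% of regions with 2 probes, 4.05% with 3, 2.69% with 4, 1.75% with 5, 0.859% with 6, 0.501% with 7 and 0.167% with 8. None of the 518 regions with 9 or more probes was dark throughout. Single dark probes were spread evenly: between 17.1% and 22.4% of probes were dark in all 4 channels whatever the number of probes in the region. Of 16273 such probes, 8.59% lay in the 414 regions. More common were regions of mixed probes, 8307 in all (52.1%), while 4051 (25.4%) were bright throughout. With a gap of 200 bp in place of 500 bp, which breaks regions into shorter runs, 1143 regions were without signal (5.75%), and with at least 3 probes 261 were (1.84%).

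**Figure D2:**
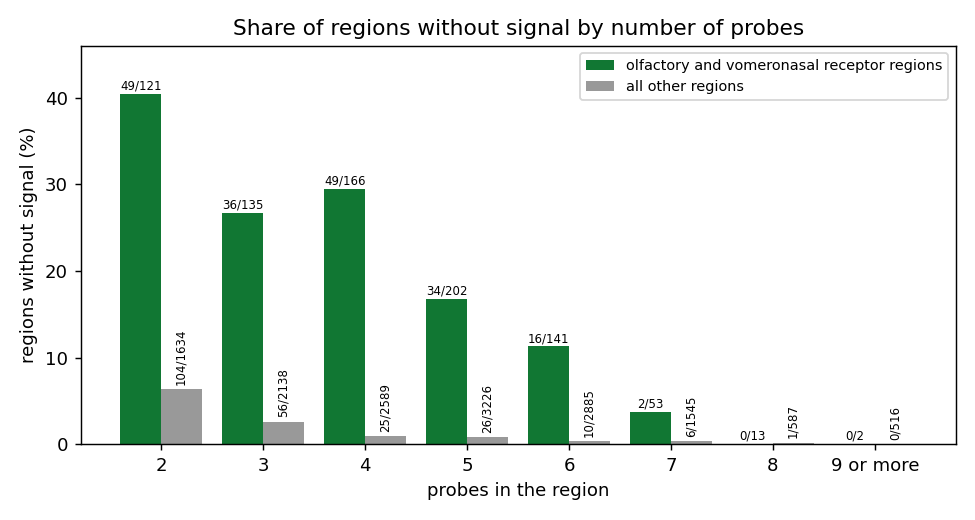
Percentage of regions without signal (vertical axis) by the number of probes in the region (horizontal axis), for olfactory and vomeronasal receptor regions and for all other regions; numbers on the bars are regions without signal over all regions. The receptor bars fall from 40.5% at 2 probes to 3.77% at 7, and the other bars from 6.36% to 0.388%.

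Odour and pheromone receptor genes made up much of the set. Of 742 regions named for olfactory receptor genes (Olfr symbols), 158 (21.3%) were without signal; regions with the same numbers of probes were without signal in 3.02% over the arrays as a whole. Vomeronasal receptor genes of the Vmn and older V1r symbols, grouped after their values were seen, had 28 of 91 regions without signal (30.8%). Together these receptors held 186 of 833 regions (22.3%), 44.9% of the regions without signal against 5.22% of all regions. The remaining 15120 regions had 228 without signal (1.51%). At 2 probes the shares were 40.5% of receptor regions and 6.36% of the others, and at 5 probes 16.8% and 0.806%, so that the receptor share was the higher at each number of probes from 2 to 7. With the 414 regions left out, 54.8% of the probes in olfactory receptor regions were dark in all 4 channels, against 13251 of 73447 probes in regions of neither kind of receptor; with the 414 included the shares were 62.7% and 18.8%. Only 2.56% of olfactory receptor regions were bright throughout, against 26.6% of the regions of neither kind. With a gap of 200 bp the olfactory share was 34.0%, and with at least 3 probes it was 17.8%.

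For single receptor genes, the net signals given here are means over the probes of a region. Olfr913 (7 probes, chromosome 9 from 38535885 to 38537146) had net signals of -5.66 and -2.74 in E17.5 replicates 1 and 2 and of -1.80 and -0.78 in P21. Olfr1166 (6 probes, chromosome 2 from 87822413 to 87823750) had -5.05 and -2.54 in E17.5 and -5.12 and -3.04 in P21. All of these means lay below 0. That every probe lay under the limit of its channel is set by the rule. Olfr843 had -1.97 and -4.01 in E17.5 and 2.56 and -5.28 in P21, with 24 of 24 readings not above background. Olfr309 had -3.86 and -7.44 in E17.5 and -4.48 and -4.43 in P21. Vmn1r69 (7 probes, chromosome 7 from 8879880 to 8881382) had -3.82 and -4.98 in E17.5 and 0.14 and -4.54 in P21. Both E17.5 means of Olfr913 were below its P21 means, as were the medians over all dark regions in each replicate and design. In the other 4 genes the means of the ages overlapped. Bitter taste receptors, another family of chemosensory receptors, had 2 of 34 Tas regions without signal, Tas2r131 and Tas2r117 (5.88%; 1.74% at the same numbers of probes). Of all probes in Tas regions, 55.8% were dark in all 4 channels, against 62.7% in olfactory receptor regions and 20.9% over all regions. Tas2r131, with 7 probes on chromosome 6 from 133728901 to 133730160, had -4.48 and -1.52 in E17.5 and -5.67 and -2.84 in P21.

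Many receptor regions without signal were neighbours. A region without signal was next to another, with no region between them, in 104 of 186 receptor regions (55.9%) and in 23 of the 228 others (10.1%). The shares without signal, 22.3% of receptor regions and 1.51% of the others, differ in the same direction, and receptor genes lie in clusters. Whether dark regions adjoin more often than these shares give was not tested. The longest run joined 5 genes on chromosome 16 from 58023174 to 58135361, Olfr187, Olfr190, Olfr191, Olfr194 and Olfr195. Runs of 4 were Olfr722 to Olfr727 on chromosome 14, Olfr175 to Olfr180 on chromosome 16, Vmn1r234 to Vmn1r237 on chromosome 17, Olfr1193 to Olfr1205 on chromosome 2, Vmn1r6 to Vmn1r-ps8 on chromosome 6 and Olfr910 to Olfr914 on chromosome 9. Outside the chemosensory genes, the run of 3 named regions was in the natural killer receptor cluster on chromosome 6, with 2 regions of Klrd1, whose product CD94 pairs with inhibitory and activating receptors, and 1 of Klrk1, which encodes the activating receptor NKG2D. Klrk1 (5 probes) had -6.28 and -4.95 in E17.5 and -5.32 and -3.65 in P21.

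By chromosome, the share without signal was highest on chromosome 2, at 4.94% (66 of 1335 regions), and lowest on chromosome 4, at 0.521% (5 of 960). Olfactory receptor genes held 45 of the 66 on chromosome 2, where 39.8% of 113 olfactory receptor regions were without signal. The olfactory share differed between chromosomes, and was highest at 48.3% of 29 regions on chromosome 16. It was 11.8% of 144 on chromosome 7, 7.41% of 27 on chromosome 1 and 0 of 13 on chromosome 4. Vomeronasal regions without signal were 6 of 13 on chromosome 17, 9 of 26 on chromosome 7, 8 of 30 on chromosome 6 and 5 of 21 on chromosome 13. With receptor regions left out, chosen after the data were seen, chromosome 2 stood at 1.72% and chromosome 16, at 3.9% with them, at 1.38%. Chromosome 18, which held no receptor region on these arrays, then stood highest, with 19 of 429 regions (4.43%), and chromosome 4 lowest at 0.528%. Protocadherin genes held 6 of the 19 on chromosome 18, and its other 371 regions had 13 without signal (3.5%). The 2 array designs had 2.45% and 2.75% of their regions without signal.

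**Figure D3:**
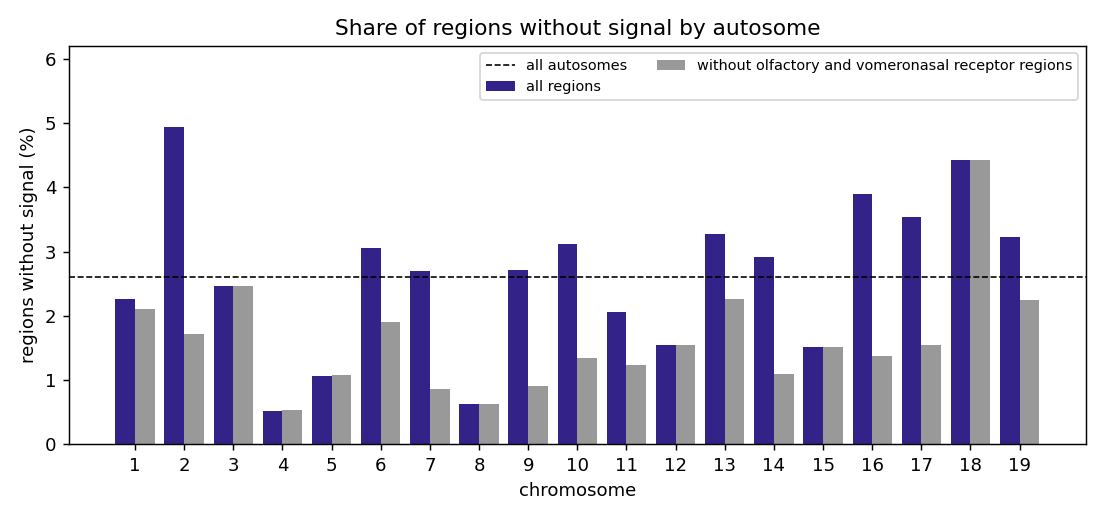
Percentage of regions without signal (vertical axis) on each autosome (horizontal axis), over all regions and without olfactory and vomeronasal receptor regions; the dashed line marks 2.6%, the share over all autosomes. Chromosome 2 falls from 4.94% to 1.72% and chromosome 16 from 3.9% to 1.38% without the receptors, while chromosome 18 is at 4.43% in both.

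Of 30 gene lists, 6 had a larger share without signal than the 2.6% over all regions and 24 a smaller one. The 2.6% includes receptor regions, and the share over regions of neither kind of receptor was 1.51%. Zinc finger genes (2.43%), RNA polymerase and mediator genes (2.08%), proteasome genes (2.0%) and erythroid genes (2.0%) lay between these shares. Protocadherins, cell adhesion proteins mostly of neurons, had 6 of 64 regions without signal (9.38%; 2.04% at the same numbers of probes), and 49.5% of all their probes were dark. Pcdha7, the one with the most probes, had net signals of -1.63 and -0.67 in E17.5 and -2.75 and 0.63 in P21 over 6 probes. Pcdhb18 and Pcdhb5 (5 probes each), Pcdha5, Pcdha10 and Pcdhga9 were the other 5. Histone genes, which in mice lie in clusters and are read during DNA replication, had 4 of 56 regions without signal (7.14%), H2ac4, H2bc4, H2ac18 and H4c12. H2ac4 (5 probes) had -0.84 and -2.15 in E17.5 and 1.57 and 0.95 in P21. The histone share was 2.13% with a gap of 1000 bp, under the 2.22% over all regions in that setting. Splicing and RNA-binding genes had 4 of 100 (4.0%), and other blood cell genes 3 of 63 (4.76%). The latter were Hlf, a transcription factor of blood stem cells and liver, Marco, a scavenger receptor of macrophages, and Runx2, a transcription factor of bone. Each rested on 2 probes, and with at least 3 probes required this list had none.

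**Figure D4:**
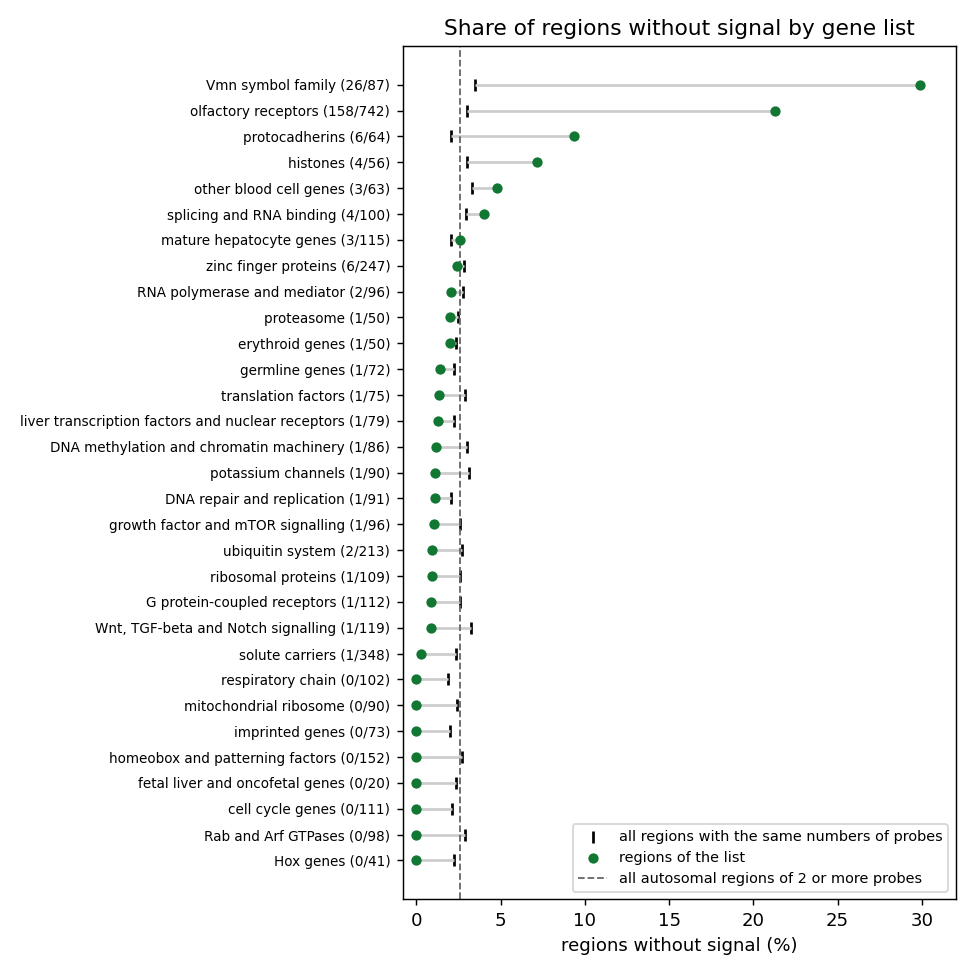
Percentage of regions without signal (horizontal axis) in 30 gene lists and the Vmn symbol family (vertical axis; regions without signal over all regions in brackets); green points are the lists, black ticks the share over all regions with the same numbers of probes, and the dashed line 2.6%. Olfactory receptors (21.3%) and the Vmn family (29.9%) lie to the right of the lists named here for other functions, which lie between 0% and 9.38%.

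Mature hepatocyte genes had 3 of 115 regions without signal (2.61%), beside 2.6% over all regions and 1.51% over regions of neither kind of receptor; in 3 of 6 other settings the list lay under the share over all regions. Cp, with 6 probes on chromosome 3 from 19297378 to 19298850, had net signals of -1.06 and 1.02 in E17.5 and -1.64 and 0.79 in P21. Acaca, the acetyl-CoA carboxylase of fatty acid synthesis, had -4.79 and -1.92 in E17.5 and -1.81 and 1.04 in P21 over 5 probes. Slco1b2, a transporter that takes bile acids and drugs up into hepatocytes, had -2.40 and -2.15 in E17.5 and 0.08 and -1.82 in P21 over 4 probes. The ages overlapped in Cp, whereas both E17.5 values of Acaca and of Slco1b2 were below both of their P21 values. The median over all dark regions was also lower in E17.5 than in P21 in each replicate and design. All these values were below the well-above-background limit, and age and dye cannot be told apart, so no age difference is read from them. Liver transcription factors and nuclear receptors had 1 of 79 (Hlf, 1.27%), and erythroid genes 1 of 50, Car2, a carbonic anhydrase abundant in red cells. The fetal liver and oncofetal list (20 regions) had 0.

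Serum albumin and its fetal counterpart were outside the set, but not bright throughout. Afp, which encodes alpha-fetoprotein, had 4 of 5 probes dark and 1 bright in all 4 channels, with region means of 22.1 and 6.83 in E17.5 and 61.8 and 15.9 in P21. Alb had 1 of 6 probes dark and 4 bright throughout. Igf2, the imprinted fetal growth factor, had 3 of 6 dark. Hnf4a, the hepatocyte nuclear receptor, had 1 of 5 dark in each of 2 regions, and Igf2r, an imprinted receptor that clears Igf2, had 0 of 2 dark. Gata1 lies on the X chromosome and was not considered, and no autosomal region of 2 or more probes was named for H19.

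Of the 30 lists, 8 had no region without signal. For each of them, regions with the same numbers of probes, receptor regions included, would have given between 0.472 and 4.14. These were 102 regions of the respiratory chain, 90 of the mitochondrial ribosome, 98 of Rab and Arf GTPases, which direct vesicle traffic, 111 of cell cycle genes, 41 of Hox genes, 152 of other homeobox and patterning factors, 73 of imprinted genes and the 20 of the fetal liver list, 687 in all. Against 2.6% over all regions and 1.51% over regions of neither kind of receptor, several lists had 1 or 2. Solute carriers had 1 of 348 (0.287%; 2.37% at the same numbers of probes), Slc22a19. Ribosomal protein genes had 1 of 109, Rpl37, and translation factors 1 of 75, Eif4b. The ubiquitin system had 2 of 213, the ligase scaffold Cul3 and Rnf19a. Zinc finger genes, mostly transcriptional repressors, had 6 of 247 (2.43%), led by Zfp280d, Zfp40 and Zfp62. Also present were 1 region each of Psmb1 (proteasome, in a region also named for Tbp), Polr2c and Taf5 (RNA polymerase II machinery), Kcnj15 (potassium channels), Gpr171 (G protein-coupled receptors), Vrk2 (germline list), Cbx2 (chromatin), Brca1 (DNA repair), Apc (Wnt signalling) and Pdpk1 (growth factor signalling). In the 8 lists with no dark region, between 11.5% and 20.8% of single probes were dark in all 4 channels. Of 93 symbol families with 20 or more regions, 58 had none without signal and 22 had 1. The 5 highest families were Vmn (26 of 87), Olfr, Pcdhb (2 of 22, 9.09%), Wdr (3 of 50, 6.0%) and Tas. Of the families at 0, those with the lowest mean signal were Serpinb (21 regions), E (28), Clec (31), Prss (26) and Mmp (23).

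Genes of RNA, chromatin and ribosome biology were among the 12 named regions with the most probes. Papola, with 7 probes on chromosome 12 from 101246319 to 101247584, had net signals of -4.58 and -1.34 in E17.5 and -2.79 and -0.51 in P21. Morc2a had -2.90 and -1.69 in E17.5 and -2.11 and 1.16 in P21 over 7 probes on chromosome 11 from 3552598 to 3553810. Wdr36, a nucleolar protein of ribosome assembly, had -2.23 and -1.53 in E17.5 and -4.65 and -2.25 in P21 over 7 probes. None of the 28 readings of any of these 3 regions was above background, which the rule sets. Their levels overlapped those of the receptor genes, but the rule keeps both under the same limits, so no likeness is read from this. Rgs18, a regulator of G protein signalling in platelets, had -5.08 and -5.65 in E17.5 and -1.51 and -5.19 in P21 over 7 probes. The region with the most probes, 8 on chromosome 19 from 41071498 to 41073176, had -6.53 and -3.39 in E17.5 and -0.94 and -1.91 in P21 and is named Morf4l1 in the files. RefSeq places Morf4l1 on another chromosome, as it does for 2 more of the 414 regions, Srsf3 and Trim21, so these 3 gene names are uncertain.

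Where a second region was measured, most genes with a region without signal had signal elsewhere, as did most regions on the arrays. The 414 regions carried 404 gene names, and 26 had coordinates only. Of the 404 named genes, 310 had only 1 region on the arrays. Of the 94 with 2 or more regions, 4 had all of them without signal and 90 did not. Over all regions, 2.6% were without signal. Genes with more than 1 region without signal were Ncoa6, a coactivator of nuclear receptors, Klrd1, Mga, a partner of Max, and Snrpc, a protein of the U1 splicing particle, with 2 each. Of the 94 genes with 2 or more regions, 17 also had a region bright throughout. Over all regions 25.4% were bright throughout, which is a share of regions and not of genes, so it is not compared with this count. Among the 17, Hnrnpk, Mir7-1 and Rmi1 were named on the same dark region and the same bright region. Hnrnpk, named together with Mir7-1 and Rmi1, had a region of 5 dark probes (-2.33 and -0.27 in E17.5, -4.13 and -0.55 in P21) on chromosome 13 from 57024761 to 57025857. A second region of 2 probes under the same names, from 57034267 to 57034733, read 240 and 151 in E17.5 and 577 and 364 in P21. Rpl37 had 3 dark probes at -4.86 and 0.50 in E17.5 and -1.15 and -1.26 in P21, on chromosome 15 from 4901218 to 4901582. Its bright region began at 4902237 and read 246 and 161 in E17.5 and 679 and 408 in P21. Aldh9a1, an aldehyde dehydrogenase of carnitine synthesis, had 2 dark probes and, on the same chromosome, 5 bright ones that read 345 and 226 in E17.5 and 678 and 351 in P21. In all 3 genes the dark and the bright region did not overlap in any sample, which the choice of both regions fixes.

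MicroRNA genes were in 5 of the 414 regions, of 178 regions named for a microRNA (2.81%, beside 2.6% over all regions and 1.64% over regions with the same numbers of probes). One region of 5 probes, on chromosome 13 from 48135723 to 48137112, is named for Mirlet7a-1, Mirlet7d and Mirlet7f-1, a cluster of the let-7 family that restrains growth-promoting messages in differentiated tissue. It had net signals of -2.20 and -1.38 in E17.5 and -0.65 and -5.38 in P21. The 5-prime mature products, shown because they share a seed (bases 2 to 8, in capitals; RefSeq, GRCm38.p6), read as follows.
let-7a: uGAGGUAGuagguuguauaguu
let-7d: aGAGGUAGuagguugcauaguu
let-7f: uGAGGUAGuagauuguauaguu
The seed GAGGUAG was the same in all 3. Mir217, a microRNA of exocrine pancreas, had 6 probes without signal, at -1.85 and -2.61 in E17.5 and -1.49 and -0.58 in P21. The other 3 regions were those of Hnrnpk with Mir7-1, Mir301 with Ska2, and Mib1 with Mir133a-1.

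Regions dark on one replicate were mostly dark on the other. Of 502 regions without signal on the replicate 1 arrays (3.15% of all regions), 414 were also without it on the replicate 2 arrays (82.5%), where the share over all regions was 3.52% and the share over the remaining regions 0.951%. In the other direction, 414 of 561 were shared (73.8%). Receptor regions carried over in 83.8% from replicate 1 to replicate 2 and the others in 81.4%; from replicate 2 to replicate 1 the shares were 81.9% and 68.3%. The 2 regions that were dark on replicate 2 and bright throughout on replicate 1 were not receptor regions. Both replicates used the same probes, so a shared dark region reflects the probes as well as the DNA, and the part of each was not tested.

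The ages shared most dark regions too. At E17.5 alone 536 regions were without signal (3.36%), and 77.2% of these were also without it at P21; at P21 alone 462 were (2.9%), and 89.6% were also without it at E17.5. The ages were read in different dyes, and the limit for a bright call differed between the channels, as given above. A single region was dark at E17.5 and bright in every probe at P21. It is named for Bdkrb1, a receptor for inflammatory kinins, on chromosome 12 from 101050640 to 101050831, with net signals of 2.29 and -0.12 in E17.5 and 24.4 and 11.6 in P21 over 2 probes. Its values at P21 lay at the low end of bright readings, and no region was dark at P21 and bright throughout at E17.5.

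No fold change between the ages is given for these regions, since both channels were below the well-above-background limit. Per the file headers' flags, 100% of the processed signals of their 1398 probes were surrogate values set by the software, and the deposited log10 ratio was 0 for 100% of these probes on both replicates. The fit over all 18946 regions with limma called 0 regions (0% of those tested) at an adjusted p under 0.05 and 2-fold, with a lowest adjusted p of 0.103, and 0 of the 414. At an unadjusted p under 0.05 it had 2598 regions (13.7%). Among them were 213 of the 414, which were all those of the second array design and none of the first. With loess in place of centring on the median, 0 of the 414 had an unadjusted p under 0.05, against 1888 of all 18946 regions (9.97%). With normexp background correction all 414 had, against 8403 of all regions (44.4%). The lowest adjusted p of the 414 in limma was then 4.12e-09, but none had a difference of 2-fold. As both channels of these probes were below the limit by the rule, no count here is a measured difference.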

How the data were processed

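Array intensity values of 8 samples, read as 4 arrays with 2 channels, were used. The authors used Agilent Feature Extraction, in version 9.1.3.1 for 3 arrays and 9.1.1.1 for the remaining array, per the file headers (9.1.1.1 in the submitters' processing notes). Processed intensity is background-subtracted and linearly dye-normalized per the file headers, and a spot is well above background when its net signal exceeds 2.6 background SDs (pixel test at p under 0.01). The authors' deposited log10 ratio of Cy5 over Cy3 was read for direction. The genome build of the probes is not given in these sources.

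Probes up to 500 bp apart formed regions. Of the names on the probes, 11571 were current RefSeq symbols, 3984 were updated, 1010 were gene pairs, 507 were unmatched and 2284 gave coordinates only. The members and lists were chosen with earlier results of these data known. Named are the 12 regions with most probes, the 3 with most probes per list, up to 5 genes with several such regions (4 were found), 5 with a dark and a bright region, the 5 highest and 5 lowest families, and Alb, Afp, Hnf4a, Gata1, Igf2, Igf2r and H19; further genes were chosen after their values were seen. limma 3.58.1 (R 4.3.3, Benjamini-Hochberg) tested log2 ratios of processed intensity, centred on each array's median, after a check on simulated data. Python 3.11.15, pandas 2.3.3, numpy 2.4.6, scipy 1.17.1 and matplotlib 3.10.9 were used. The number of arrays limits the precision.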

Additional observations from a re-analysis of the deposited data

How the results depend on the processing

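The number of regions without signal moved with the definition of a region. It was 1143 with a gap of 200 bp, 261 with at least 3 probes, 831 when at least 3 in 4 probes had to be dark, and 228 without receptor regions (added after the data were seen). It was 342 with a gap of 1000 bp, 421 without outlier spots, 432 with the sex chromosomes, 414 with the software's other detection flag, 536 from the E17.5 channel and 462 from the P21 channel. Leaving out a replicate gave 502 to 561. As a share of all regions it was 5.75% with a gap of 200 bp, 2.22% with 1000 bp, 1.84% with at least 3 probes, and 3.15% to 3.52% without a replicate. The olfactory receptor share was 34% with a gap of 200 bp, 17.8% with at least 3 probes, and 26% to 26.1% without a replicate; for all receptors it was 34.5%, 19.2%, and 26.7% to 27.3%. Of the 30 lists, 19 kept their side of the overall share in all 6 settings tried and 11 did not, among them histones, mature hepatocyte genes and other blood cell genes. From replicate 2 to replicate 1, 73.8% of dark regions carried over. CCCGGG was in 0% of the windows of receptor genes with a region without signal. Leaving out genes with regions of both kinds could not change this, as the 144 windows left are part of the same 149.

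The array pairs the ages by construction, and without it (no replicate block) limma called 0 regions. It called 119 with normexp, 1 with the filter on dim probes (which removes all 414 regions), and 0 with loess, trend and robust variance, or the series value table; 0 of the 414 were called in any setting that tested them, for lack of a 2-fold difference with normexp. With 1 array there is no test: 119 to 373 regions were past 2-fold without a replicate, against 42 on both arrays. The causes were not tested. What the regions can show is limited by signal over background, since a dark probe gives only a bound.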

Other observations

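The X chromosome, outside the set, had 17 of 563 regions without signal (3.02%), and 27.6% of its probes in such regions of 2 or more probes were dark in all 4 channels, against 20.9% on the autosomes. Among the 17 were Mir465, Mir470 and Mir471, of a microRNA cluster, and Bex2, Nxf7, Brs3, a receptor of energy balance, and Tex16. The Y chromosome had 1 of 11, Kdm5d, a histone demethylase.

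Families of 5 to 19 regions with at least 2 without signal were picked after their values were seen, so their shares, beside 2.6% over all regions, support no pattern. Prolactin-related genes of the placenta had 2 of 13 regions without signal (Prl8a6 and Prl2a1, 15.4%), and late cornified envelope genes of skin had 2 of 18 (Lce1b and Lce3b, 11.1%). The Pcdha family had 3 of 12, and the Elf transcription factors 2 of 6 (Elf1 and Elf2). Of single probes that stand alone on the autosomes, 454 of 2352 were dark in all 4 channels. Among regions that carry coordinates and no gene name, 26 of 456 (5.7%) were without signal.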
